A study of Mus musculus with 15 samples.

Results

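The genes described here are 10 genes of MHC class I antigen presentation and its counterpart at the T cell checkpoint, followed through 15 RNA-seq libraries of B16.F10 cells. They were chosen by symbol: the classical heavy chains H2-K1 and H2-D1, the non-classical heavy chain H2-T23, the light chain B2m, the peptide transporter subunits Tap1 and Tap2, the loading factors Tapbp and Tapbpl, the trimming peptidase Erap1, and Cd274, which encodes the checkpoint ligand PD-L1. All 10 were present in the count tables of every group, among 12721 genes listed in all 5 groups and 13172 genes listed in any. B16.F10 is an established melanoma line of C57BL/6 mouse origin, and all libraries came from cells kept in 1% oxygen. There were 5 groups of 3 libraries. Control received nothing. The negative control siRNA group (NC_siRNA in plots) and the Hif-1α knockdown group (Hif1a_siRNA in plots) received an siRNA without drug. The Doxorubicin group (Dox in plots) received the drug without siRNA, and the Hif-1α knockdown + Doxorubicin group (Hif1a_siRNA_Dox in plots, also called the combined group) received both. siRNA was delivered in lipoplexes at 25 nM, and the drug, a DNA-damaging anthracycline, was added 24 h later at 0.25 µM for 24 h. No group combined the negative control siRNA with the drug, so the comparison of Hif-1α knockdown + Doxorubicin with Doxorubicin joins the effect of the lipoplex to that of the siRNA sequence, and these cannot be told apart. The time of harvest of the groups without drug is not given in the sources used here, so drug effects may also hold a difference in time, which was not tested. The knockdown groups are transient siRNA treatments of 1 cell line. The libraries are numbered as biological replicates without a statement that they came from separate cultures. The p-values therefore judge group differences only against the spread between these libraries.

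MHC class I molecules display peptides from inside the cell to CD8 T cells. The proteasome cuts proteins into peptides, the TAP transporter carries them into the endoplasmic reticulum, ERAP1 trims them, and tapasin (Tapbp) with the chaperone calreticulin and the oxidoreductase ERp57 (Pdia3) loads them onto a heavy chain paired with β2-microglobulin. Interferons raise these genes through IRF and STAT factors, and NLRC5, NF-κB and the RFX, CREB and NF-Y factors act at heavy chain promoters. B16 melanoma is known for low class I display in culture, and PD-L1 on a tumour cell restrains T cells that recognise the displayed peptide.

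In build GRCm38.p6, 6 members lie in the MHC region of chromosome 17: Tapbp at chr17:33919478-33929290, H2-K1 at chr17:33996012-34000619, Tap1 at chr17:34187556-34197225, Tap2 at chr17:34204479-34216321, H2-D1 at chr17:35263094-35267497 and H2-T23 at chr17:36029977-36032701. B2m lies at chr2:122147687-122153082, Tapbpl at chr6:125223927-125231860, Erap1 at chr13:74639573-74693205 and Cd274 at chr19:29362107-29388095.

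Each library held 23825110 to 28734303 counts. Hif1a itself, the siRNA target, stood at 264 to 289 CPM (counts scaled to library size by the TMM method) with the negative control siRNA and at 15.9 to 18.9 CPM in Hif-1α knockdown, a 15.9-fold lower level (log2 difference -3.99 ± 0.09 SE, adjusted p = 1.2e-20). In Doxorubicin it stood at 137 to 153 CPM, and in Hif-1α knockdown + Doxorubicin at 11.6 to 14.2 CPM. All 10 markers of the melanocyte lineage had values, and none of 8 leukocyte or 4 endothelial markers did, including Ptprc and Pecam1, which were not analysed here. Of 5 fibroblast markers Pdgfra, with 20 to 26 reads a library in Control, and Pdgfrb had values. Both were higher with Doxorubicin than in Control, where 43.9% of all genes were. Both were higher again in the combined group than in Doxorubicin, where 21.5% of all genes were. Their sum was 14.9 to 16.2 CPM in Control, 17.9 to 22.3 CPM with the negative control siRNA, 17.01 to 19.4 CPM in Hif-1α knockdown, 21.0 to 23.5 CPM in Doxorubicin and 32.2 to 35.2 CPM in the combined group. Of 7 class II presentation genes 3 had values, H2-DMa, H2-DMb1 and Cd74. Beside 43.9% higher and 39.8% lower of all genes, 6 melanocyte markers were higher with Doxorubicin than in Control and 4 lower. Their sum, made up mostly of Tyrp1, Dct and Pmel, was 13552 to 14689 CPM in Control, 8365 to 9040 CPM with the negative control siRNA, 9195 to 9600 CPM in Hif-1α knockdown, 40101 to 46717 CPM in Doxorubicin and 29896 to 36776 CPM in the combined group. Among the 4 lower markers Sox10, named after its values were seen, went from 199.9 ± 7.06 CPM (SD, n = 3) in Control to 28.5 ± 2.67 CPM in Doxorubicin. The mitochondrial share of counts went from 1.38% to 1.47% in Control to 3.37% to 4.07% in Doxorubicin and 3.90% to 5.07% in Hif-1α knockdown + Doxorubicin. Their part in the differences below was not tested. In bulk RNA, fewer cells making a transcript and less of it per cell cannot be told apart.

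The promoters of the heavy chains and of their partners are shown first, because H2-K1 and H2-D1 are close copies there while they went apart in their levels. The stretches come from RefSeq, build GRCm38.p6, read 5′ to 3′ on the strand of the gene. Of the 10 members, 8 had a promoter window in that table, and Tap2 and Tapbpl had none. Capitals mark matches, on either strand, to the interferon-stimulated response element (ISRE), an NF-κB core, a CRE-like motif, a CCAAT box and, in Tap1, one form of the hypoxia response core. The CRE-like motif was searched as TGACG. The form of the hypoxia response core in Tap1 is GCGTG. Outside the printed stretches, it was also matched in the windows of H2-D1, 17 bases before the start site, and of Cd274, 201 bases before it. The H2-K1 windows had no match to it.
H2-K1, chr17:34000335-34000518, minus strand: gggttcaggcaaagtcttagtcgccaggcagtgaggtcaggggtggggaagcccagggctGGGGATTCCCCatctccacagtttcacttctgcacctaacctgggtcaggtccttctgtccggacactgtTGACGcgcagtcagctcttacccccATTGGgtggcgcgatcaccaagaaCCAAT
H2-D1, chr17:35262863-35263045, plus strand: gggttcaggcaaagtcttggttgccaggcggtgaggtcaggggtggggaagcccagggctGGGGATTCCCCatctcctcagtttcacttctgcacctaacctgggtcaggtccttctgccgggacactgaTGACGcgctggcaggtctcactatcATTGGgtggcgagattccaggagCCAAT
H2-T23, chr17:36032702-36032851, minus strand: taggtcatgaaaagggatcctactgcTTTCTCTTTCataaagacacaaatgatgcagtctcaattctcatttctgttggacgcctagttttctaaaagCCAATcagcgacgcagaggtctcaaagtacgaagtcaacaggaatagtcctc
B2m, chr2:122147537-122147686, plus strand: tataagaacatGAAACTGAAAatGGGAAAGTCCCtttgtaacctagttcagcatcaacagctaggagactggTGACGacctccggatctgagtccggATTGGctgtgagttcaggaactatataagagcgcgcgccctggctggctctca
Tap1, chr17:34187331-34187555, plus strand: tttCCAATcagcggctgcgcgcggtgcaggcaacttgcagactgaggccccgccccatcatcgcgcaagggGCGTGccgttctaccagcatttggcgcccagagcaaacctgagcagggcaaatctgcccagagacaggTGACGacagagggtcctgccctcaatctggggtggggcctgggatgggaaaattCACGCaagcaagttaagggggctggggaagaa
The H2-K1 and H2-D1 stretches were cut to begin and end at letters that both share. They matched at 165 of 184 aligned positions (89.7%), with 1 gapped position. The H2-K1 stretch ends beside the annotated start site at 34000333 and runs over another at 34000347. Both stretches hold the same NF-κB core, GGGGATTCCCC, a CRE-like motif and a CCAAT box on each strand. The ISRE was searched as a fixed pattern of letters, which had no match in the H2-K1 and H2-D1 windows. Interferon elements with other letters would be left unmarked by this search. It therefore cannot show that the H2-K1 and H2-D1 promoters lack such an element. The H2-T23 stretch was cut in another way, as the 150 bases before its start site. It shared 42.4% of positions with H2-K1, with 34 gapped positions, so this share cannot be set against the 89.7%. H2-T23 has an ISRE and a CCAAT box. The B2m stretch holds an ISRE directly before an NF-κB core. The Tap1 stretch is the whole 225 bases that separate Tap1 from the neighbouring Psmb9, an immunoproteasome gene read from the other strand. Among 32851 RefSeq promoter windows of 250 bases, the ISRE letters were found in 2.98%, the NF-κB core in 17.6%, the CRE-like motif in 17.8%, the CCAAT box in 33.8% and the Tap1 form of the hypoxia core in 28.2%. Of the other hypoxia response core, ACGTG (16.6% of windows), the only member match was in the Erap1 window. The interferon-gamma activated site, searched as TTCNNNGAA and found in 7.02% of windows, had no match in a member's window. These are matches of letters and not measured binding sites.

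Hif-1α knockdown split the members. Against the negative control siRNA, 6 of the 10 were lower (H2-K1, H2-D1, H2-T23, Tapbp, Tapbpl and Erap1), 3 were higher (Tap1, Tap2 and Cd274) and B2m did not pass the test at an adjusted p of 0.05. Of all tested genes 67.7% passed in this comparison, 31.2% as lower and 36.4% as higher, so a call by itself is common here and the sizes carry the description. H2-T23 had only 13 of 12721 genes with a more negative fold change, and H2-K1 had 114. The median log2 difference of the 10 was -0.57, beside 0.06 over all genes. Against Control, Hif-1α knockdown left 6 members lower (H2-K1, H2-D1, H2-T23, B2m, Tapbp and Tapbpl) and 1 higher (Cd274), where 74.4% of all genes passed (34.2% lower, 40.2% higher). The negative control siRNA against Control gave 3 higher (H2-T23, Tapbp and Erap1) and 3 lower members (H2-D1, B2m and Tap2), where 66.8% of all genes passed (33.1% higher, 33.7% lower).

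Doxorubicin raised nearly the whole set. Against Control, 9 members were higher and 1, H2-T23, was lower, with 83.8% of all genes passing, 43.9% as higher and 39.8% as lower. The median log2 difference of the members was 1.28, beside 0.10 over all genes. Tap1 had the largest rise of the 10, and 179 of all genes rose more. In cells with the Hif-1α siRNA, the drug again left 9 members higher than in Hif-1α knockdown alone, H2-T23 now among them, while Cd274 did not pass, with 84.2% of all genes passing, 42.6% as higher and 41.6% as lower. The combined group against Control again had 9 members higher and H2-T23 lower, with 84.7% of all genes passing (43.4% higher, 41.2% lower). With the drug in both groups, adding the Hif-1α siRNA left 7 of 10 members without a call, 2 lower (H2-K1 and Erap1) and 1 higher (Cd274), where 42.2% of all genes passed, 20.8% as lower and 21.5% as higher.

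**Figure D1:**
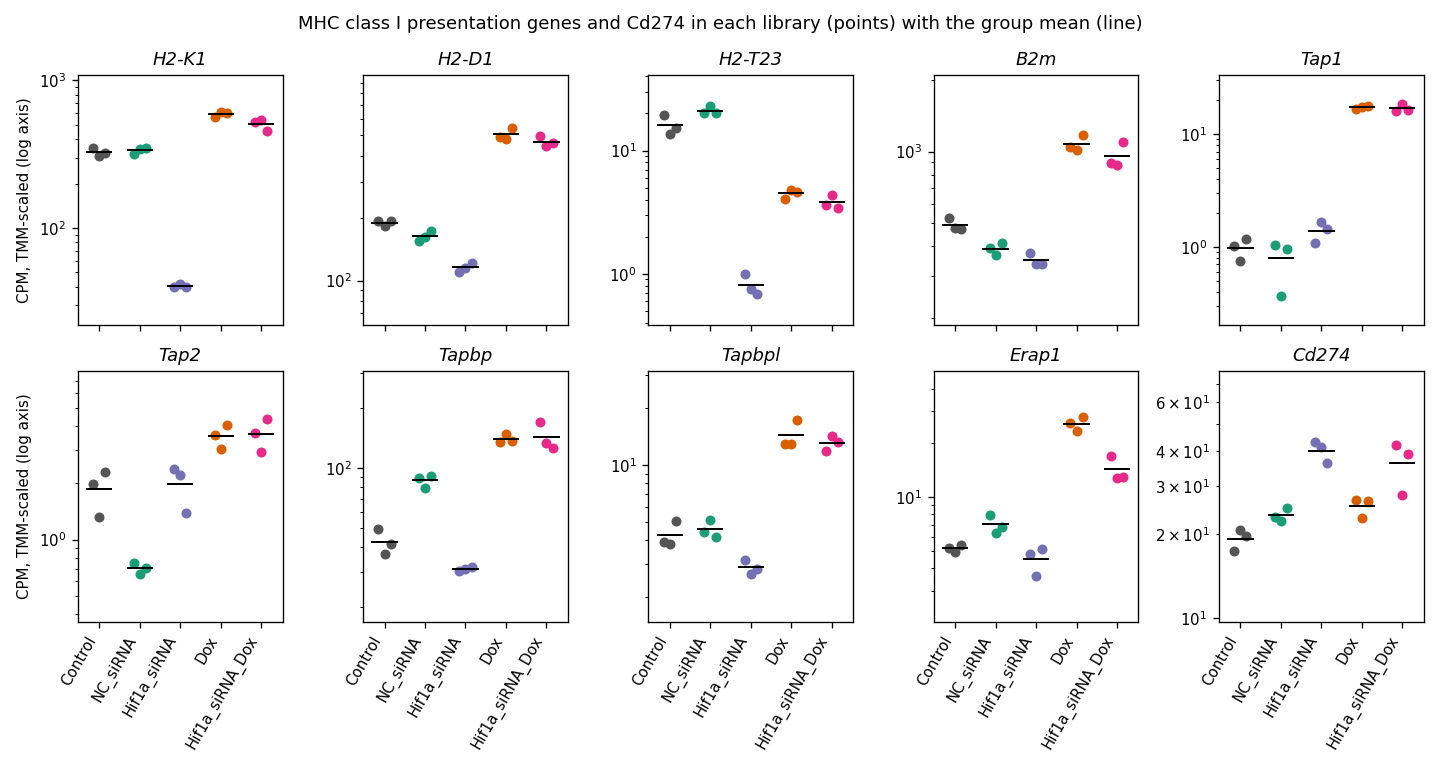
CPM of the 10 members in each of the 15 libraries (points, log axis with its own range per gene) with the mean of each group of 3 (line). H2-K1 and H2-T23 fall to 40.4 and 0.81 CPM on average in the Hif1a_siRNA libraries, and Tap1 lies between 16.2 and 18.7 CPM in the 6 libraries with doxorubicin and at most 1.66 CPM in the other 9.

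H2-K1, which encodes the classical heavy chain K, was low in Hif-1α knockdown and high in both drug groups. Control libraries held 348, 306 and 322 CPM and negative control siRNA libraries 316, 343 and 349 CPM, so these groups overlapped. Hif-1α knockdown libraries held 39.8, 41.8 and 39.6 CPM, far below either. Doxorubicin libraries held 563, 606 and 601 CPM, and Hif-1α knockdown + Doxorubicin libraries 520.1, 541 and 450.4 CPM. Knockdown left H2-K1 8.32-fold lower than the negative control siRNA (log2 difference -3.06 ± 0.08 SE, adjusted p = 7.5e-20). The negative control siRNA against Control gave a log2 difference of 0.05 (95% interval -0.11 to 0.20, adjusted p = 0.57). Doxorubicin raised H2-K1 by 1.81-fold against Control (log2 0.86 ± 0.07 SE, adjusted p = 6.6e-11) and by 12.5-fold in the presence of the Hif-1α siRNA (log2 3.64 ± 0.08 SE, adjusted p = 3.0e-21). With drug in both groups H2-K1 was 1.17-fold lower with the siRNA (log2 -0.23 ± 0.07 SE, adjusted p = 0.012). That last call was lost without replicate 3 of Hif-1α knockdown + Doxorubicin (log2 -0.15, adjusted p = 0.073).

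H2-D1, the other classical heavy chain gene of this strain, lies on the same chromosome and shares most of the promoter letters printed above. Its levels were 193, 183 and 194 CPM in Control, 155, 162 and 172 CPM with the negative control siRNA and 110.0, 115 and 122 CPM in Hif-1α knockdown. These 3 groups did not overlap in TMM-scaled CPM, in descending order. The step from Control to the negative control siRNA was small (log2 -0.22). Read counts of these 2 groups overlapped, 4156 to 4480 and 4315 to 4638. Their TMM factors were 0.858 to 0.883 and 1.01 to 1.03, so the gap between them depends on the scaling. Doxorubicin libraries held 494, 484 and 545 CPM and Hif-1α knockdown + Doxorubicin libraries 495, 447 and 459 CPM, which overlapped. Knockdown lowered H2-D1 by 1.41-fold against the negative control siRNA (log2 -0.50 ± 0.07 SE, adjusted p = 5.8e-07), a much smaller step than that of H2-K1. The drug raised it by 2.67-fold against Control (log2 1.42 ± 0.07 SE, adjusted p = 1.9e-15) and by 4.04-fold in knockdown cells (log2 2.01 ± 0.07 SE, adjusted p = 5.0e-18).

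The ratio of the 2 transcripts within a library does not depend on scaling. Control libraries had 1.71 ± 0.08 (SD, n = 3) H2-K1 reads per H2-D1 read and negative control siRNA libraries 2.06 ± 0.06 (SD, n = 3). In Hif-1α knockdown the ratio was 0.35 ± 0.02 (SD, n = 3), so H2-D1 was the more counted of the 2 in these libraries. In Doxorubicin it was 1.17 ± 0.08 (SD, n = 3), and in Hif-1α knockdown + Doxorubicin 1.08 ± 0.12 (SD, n = 3), the last with 1 library below an even ratio, at 0.98. No 100-base stretch of the H2-K1 transcript is shared with another gene's transcript in GENCODE, against 4.64% of those of H2-D1 (mostly with H2-Q1) and 7.28% of those of H2-T23, so reads of the last pair are the more open to being assigned to relatives.

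**Figure D2:**
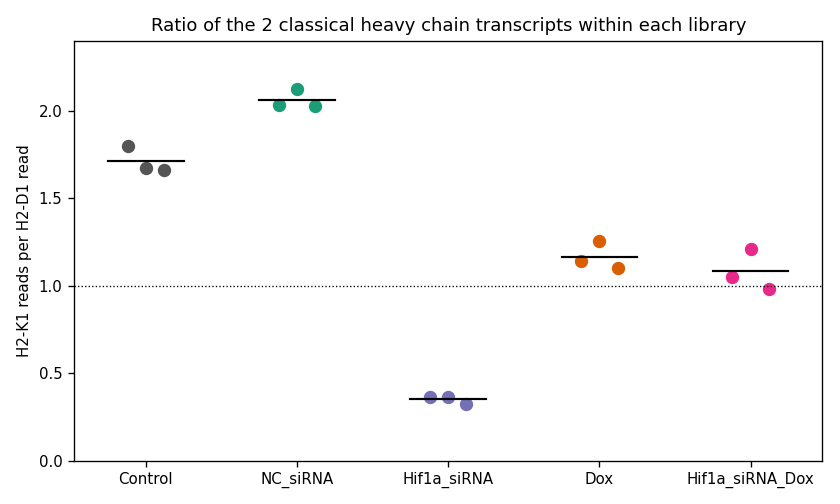
H2-K1 reads per H2-D1 read in each library (points) with the group mean (line); the dotted line marks equal counts. The 3 Hif1a_siRNA libraries lie between 0.326 and 0.362, below all libraries of the other groups, whose lowest is 0.981.

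H2-T23 encodes Qa-1, a non-classical heavy chain that presents leader peptides to the NKG2A receptor of NK and CD8 T cells. It was at 19.3, 13.5 and 15.1 CPM in Control and 20.04, 22.9 and 20.2 CPM with the negative control siRNA. In Hif-1α knockdown only 23 to 32 reads a library remained, 0.995, 0.755 and 0.691 CPM. Doxorubicin libraries held 4.07, 4.79 and 4.61 CPM and Hif-1α knockdown + Doxorubicin libraries 3.63, 4.35 and 3.42 CPM. The order was therefore knockdown alone lowest, both drug groups above it and overlapping each other, and the drug-free groups with intact Hif1a highest. H2-T23 was 25.7-fold lower in Hif-1α knockdown than with the negative control siRNA (log2 -4.69 ± 0.19 SE, adjusted p = 3.9e-16). It was the only member called lower with Doxorubicin than in Control, by 3.56-fold against Control (log2 -1.83 ± 0.16 SE, adjusted p = 1.5e-10), and in knockdown cells it rose with the drug by 4.67-fold (log2 2.22 ± 0.20 SE, adjusted p = 4.2e-10). These directions are those of its own counts: with the 7 tested class I heavy chain genes summed into 1, in which H2-K1 and H2-D1 hold most reads, Doxorubicin against Control gave 0.96 and the combined group against Control 0.78. Its rise with the negative control siRNA over Control (log2 0.40 ± 0.14 SE, adjusted p = 0.017) did not pass without replicate 2 of Control, replicate 3 of Control or replicate 2 of the negative control siRNA (adjusted p = 0.11, 0.061 and 0.075).

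B2m, the light chain that every class I heavy chain needs to reach the surface, was the most abundant member. Control libraries held 524, 478 and 472 CPM, negative control siRNA libraries 393, 367 and 413 CPM, and Hif-1α knockdown libraries 375, 336 and 335 CPM. Doxorubicin raised it to 1049.5, 1019.8 and 1170.0 CPM and Hif-1α knockdown + Doxorubicin to 897, 880.3 and 1095 CPM. The drug groups were above every drug-free library and overlapped each other. The rise was 2.20-fold against Control (log2 1.14 ± 0.08 SE, adjusted p = 4.4e-12) and 2.74-fold in knockdown cells (log2 1.46 ± 0.08 SE, adjusted p = 4.8e-14). Hif-1α knockdown against the negative control siRNA gave a log2 difference of -0.16 (95% interval -0.34 to 0.01, adjusted p = 0.073), and the call changed with settings: it passed with RLE size factors (-0.21, adjusted p = 0.017), without replicate 2 of the negative control siRNA (-0.21, adjusted p = 0.038) and without replicate 1 of Hif-1α knockdown (-0.22, adjusted p = 0.032). Against Doxorubicin, the combined treatment gave -0.17 (adjusted p = 0.084), and -0.28 (adjusted p = 0.004) without its replicate 3.

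Tap1 and Tap2 encode the 2 subunits of the peptide transporter, and both were scarce without drug. Tap1 was at 1.01, 0.749 and 1.17 CPM in Control, 1.04, 0.366 and 0.967 CPM with the negative control siRNA, and 1.09, 1.66 and 1.44 CPM in Hif-1α knockdown, from 10 to 55 reads a library. Doxorubicin libraries held 16.7, 17.5 and 17.9 CPM and Hif-1α knockdown + Doxorubicin libraries 16.2, 18.7 and 16.3 CPM. Tap1 thus rose 17.7-fold with the drug (log2 4.14 ± 0.23 SE, adjusted p = 3.4e-14) and 12.1-fold in knockdown cells (log2 3.60 ± 0.21 SE, adjusted p = 7.5e-14), and the 2 drug groups overlapped (log2 -0.03, 95% interval -0.40 to 0.35). The call of Tap1 as higher in Hif-1α knockdown than with the negative control siRNA (log2 0.82 ± 0.27 SE, adjusted p = 0.010) rested on low counts and was lost without replicate 2 of the negative control siRNA (0.47, adjusted p = 0.099) or replicate 2 of Hif-1α knockdown (0.67, adjusted p = 0.059).

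Tap2 moved less. Its libraries ranged from 1.32 to 2.29 CPM in Control, 0.659 to 0.755 CPM with the negative control siRNA, 1.38 to 2.36 CPM in Hif-1α knockdown, 3.02 to 4.08 CPM in Doxorubicin and 2.92 to 4.36 CPM in the combined group. The higher level in Hif-1α knockdown than with the negative control siRNA (log2 1.48 ± 0.29 SE, adjusted p = 9.3e-05) stood beside a lower level with the negative control siRNA than in Control (log2 -1.40 ± 0.30 SE, adjusted p = 2.9e-04). Hif-1α knockdown and Control overlapped (log2 0.09, 95% interval -0.50 to 0.67). Doxorubicin raised Tap2 by 1.90-fold against Control (log2 0.93 ± 0.26 SE, adjusted p = 0.0020) and by 1.84-fold in knockdown cells (log2 0.88 ± 0.24 SE, adjusted p = 0.0021). Tap1 reads per Tap2 read were 0.53 ± 0.03 (SD, n = 3) in Control, 1.10 ± 0.47 with the negative control siRNA, 0.75 ± 0.29 in Hif-1α knockdown, 4.94 ± 0.76 in Doxorubicin and 4.83 ± 1.39 in the combined group. The lowest library with drug had 3.74 and the highest without drug 1.38, from few reads.

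Tapbp encodes tapasin, which bridges TAP to the empty heavy chain. It was the member that the negative control siRNA raised most: from 36.8 to 49.7 CPM in Control to 79.4 to 91.1 CPM (2.03-fold, log2 1.02 ± 0.11 SE, adjusted p = 2.6e-08). Hif-1α knockdown libraries held 30.5, 31.2 and 32.0 CPM, below both. The fall was 2.77-fold against the negative control siRNA (log2 -1.47 ± 0.11 SE, adjusted p = 4.2e-11) but 1.37-fold against Control (log2 -0.45 ± 0.11 SE, adjusted p = 7.5e-04). Doxorubicin libraries held 134 to 149 CPM and the combined group 126 to 169 CPM, a rise of 3.27-fold against Control (log2 1.71 ± 0.11 SE, adjusted p = 8.3e-13) and of 4.57-fold in knockdown cells (log2 2.19 ± 0.11 SE, adjusted p = 1.1e-14).

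Tapbpl encodes TAPBPR, a tapasin relative that edits the bound peptides. Its levels ran from 3.79 to 5.06 CPM in Control, 4.17 to 5.09 CPM with the negative control siRNA, 2.66 to 3.14 CPM in Hif-1α knockdown, 12.9 to 17.4 CPM in Doxorubicin and 11.9 to 14.3 CPM in the combined group. Knockdown lowered it by 1.59-fold against the negative control siRNA (log2 -0.67 ± 0.17 SE, adjusted p = 0.0015), and the drug raised it by 3.38-fold against Control (log2 1.76 ± 0.16 SE, adjusted p = 6.5e-10). Its lower level in Hif-1α knockdown than in Control (log2 -0.57, adjusted p = 0.0057) became -0.43 (adjusted p = 0.051) without replicate 3 of Control.

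Erap1, which trims peptides in the endoplasmic reticulum to the length class I molecules bind, was the member on which the added siRNA left the clearest mark under drug. Control libraries held 5.21, 4.94 and 5.37 CPM, negative control siRNA libraries 7.95, 6.30 and 6.81 CPM and Hif-1α knockdown libraries 4.82, 3.63 and 5.11 CPM. Doxorubicin raised Erap1 to 25.7, 23.2 and 27.7 CPM, and Hif-1α knockdown + Doxorubicin libraries held 16.9, 12.8 and 12.9 CPM, between the drug group and the drug-free libraries and overlapping neither. The drug raised it by 4.93-fold against Control (log2 2.302 ± 0.15 SE, adjusted p = 1.2e-12), and the combined group was 1.796-fold below Doxorubicin (log2 -0.84 ± 0.14 SE, adjusted p = 4.2e-05), a difference exceeded downwards by 557 of 12721 genes. Knockdown without drug was 1.55-fold below the negative control siRNA (log2 -0.64 ± 0.15 SE, adjusted p = 9.2e-04) and overlapped Control (log2 -0.19, 95% interval -0.55 to 0.16). Its higher level with the negative control siRNA than in Control (log2 0.44, adjusted p = 0.017) did not pass without replicate 2 of Control (adjusted p = 0.053) or replicate 1 of the negative control siRNA (adjusted p = 0.093).

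Cd274 followed another order than the presentation genes. Control libraries held 17.4, 20.7 and 19.8 CPM, negative control siRNA libraries 23.02, 22.4 and 24.9 CPM and Doxorubicin libraries 26.5, 23.01 and 26.4 CPM. The negative control siRNA against Control gave a log2 difference of 0.28 (adjusted p = 0.053), and 0.33 (adjusted p = 0.047) without replicate 2 of Control. The libraries with the Hif-1α siRNA were the highest, at 43.1, 41.2 and 36.2 CPM without drug and 41.9, 27.9 and 38.9 CPM with it. Hif-1α knockdown was 1.71-fold above the negative control siRNA (log2 0.78 ± 0.12 SE, adjusted p = 4.7e-06) and 2.08-fold above Control (log2 1.06 ± 0.12 SE, adjusted p = 5.6e-08). With drug in both groups the siRNA-treated libraries were 1.43-fold higher (log2 0.52 ± 0.12 SE, adjusted p = 0.0016). Doxorubicin raised Cd274 by 1.31-fold against Control (log2 0.39 ± 0.13 SE, adjusted p = 0.0063), and in knockdown cells the drug gave a log2 difference of -0.15 (95% interval -0.41 to 0.11, adjusted p = 0.24), which passed as lower without replicate 1 of the combined group (-0.27, adjusted p = 0.046).

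**Figure D3:**
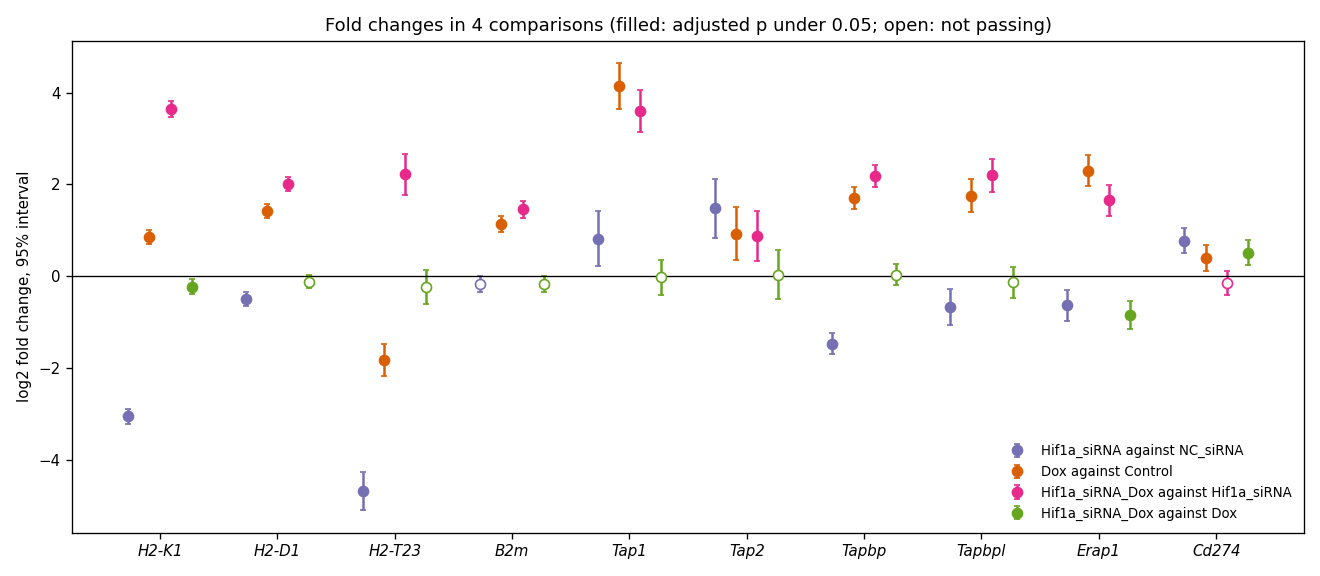
Log2 fold changes of the 10 members with 95% intervals in 4 comparisons (colours); filled points passed at an adjusted p under 0.05 and open points did not. The points of Hif1a_siRNA_Dox against Dox lie close to 0 except for Erap1 (-0.84) and Cd274 (0.52), while those of Hif1a_siRNA against NC_siRNA range from -4.69 to 1.48.

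Per kilobase of exonic length, which allows the members to be set against each other, B2m had the highest level in Control, 571 ± 33.0 CPM per kb (SD, n = 3), followed by H2-K1 (197 ± 12.7), H2-D1 (90.5 ± 2.86), Tapbp (14.7 ± 2.24), H2-T23 (10.9 ± 2.01), Cd274 (5.33 ± 0.47) and Tapbpl (1.81 ± 0.30). Erap1, Tap2 and Tap1 were under 1 CPM per kb. In Hif-1α knockdown H2-D1 (55.0 ± 2.75) stood above H2-K1 (24.4 ± 0.74), and Cd274 (11.1 ± 0.99) beside Tapbp (10.8 ± 0.25), within their spread. In Doxorubicin the order was B2m (1255.5 ± 92.5), H2-K1 (356 ± 14.0), H2-D1 (241 ± 15.6) and Tapbp (48.2 ± 2.68), with Tap1 (5.88 ± 0.21) and Tapbpl (6.13 ± 1.11) within their spread of each other.

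Whether the drug acted to the same extent with and without the Hif-1α siRNA was tested as the difference between the 2 drug effects, Hif-1α knockdown + Doxorubicin over Hif-1α knockdown minus Doxorubicin over Control. The difference passed for 7 members, where 58.6% of all genes passed (26.3% positive, 32.3% negative). It was positive for H2-T23 (log2 4.05 ± 0.26 SE, adjusted p = 6.6e-12), H2-K1 (2.78 ± 0.10, adjusted p = 3.0e-16), H2-D1 (0.60 ± 0.09, adjusted p = 8.4e-06), Tapbp (0.48 ± 0.15, adjusted p = 0.0080) and B2m (0.32 ± 0.11, adjusted p = 0.018). It was negative for Erap1 (-0.65 ± 0.21, adjusted p = 0.011) and Cd274 (-0.54 ± 0.17, adjusted p = 0.0096). For Tap1 (-0.54, 95% interval -1.25 to 0.17), Tap2 (-0.05, -0.84 to 0.74) and Tapbpl (0.44, -0.07 to 0.95) it did not pass. The heavy chains started lower in knockdown cells. With the drug, the 95% interval of the log2 difference between the combined group and Doxorubicin was -0.38 to -0.07 for H2-K1, -0.26 to 0.03 for H2-D1 and -0.61 to 0.14 for H2-T23. The B2m difference did not pass without replicate 1 of Control (adjusted p = 0.050), replicate 2 or 3 of Hif-1α knockdown (0.054 and 0.057) or replicate 3 of the combined group (0.068), and that of Tapbpl passed without replicate 3 of Doxorubicin (0.60, adjusted p = 0.031).

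**Figure D4:**
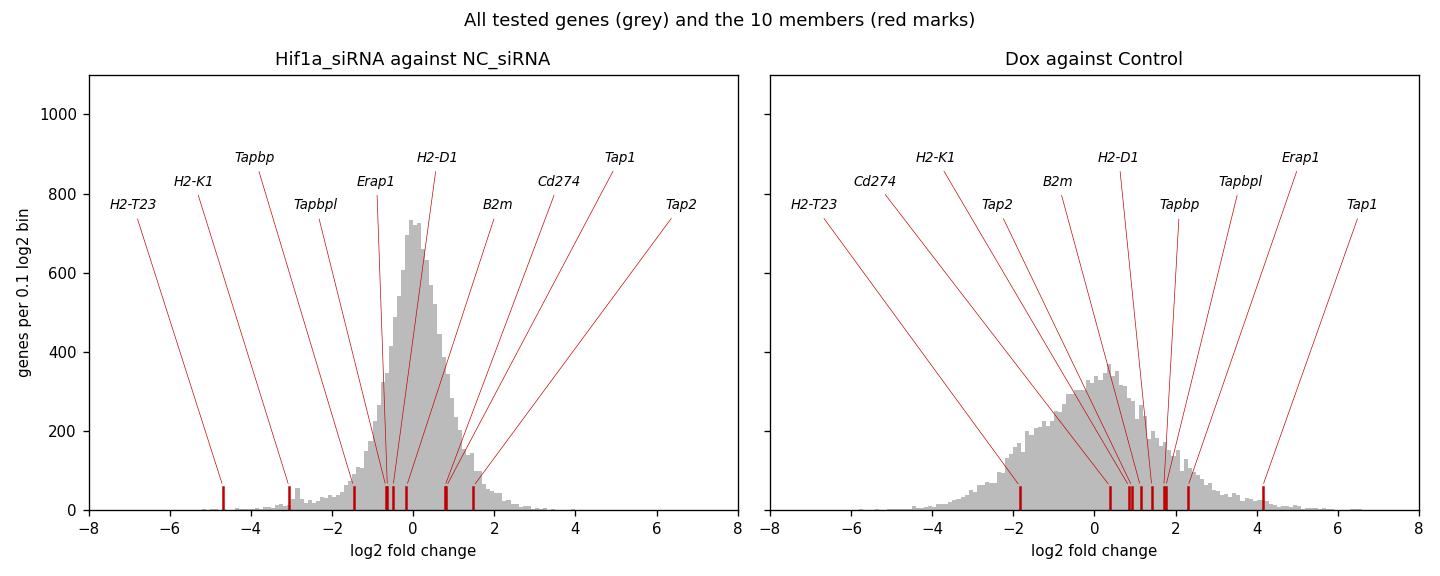
Histograms of the log2 fold changes of all 12721 tested genes (grey, genes per bin of 0.1) with the 10 members marked in red, for Hif1a_siRNA against NC_siRNA and for Dox against Control. H2-T23 (-4.69) and H2-K1 (-3.06) lie in the lower tail on the left, and Tap1 (4.14) in the upper tail on the right.

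Genes that act before and around these 10 were followed in 8 lists. Of 5 genes of the immunoproteasome and its activator, which cut peptides suited to class I, Psmb10, Psme1 and Psme2 had values, while Psmb8 and Psmb9 were not analysed here. All 3 rose with Doxorubicin against Control, where 43.9% of all genes did. Psmb10, a catalytic subunit, rose by log2 3.24 ± 0.19 (SE), and the activator subunits Psme2 by 1.63 ± 0.08 and Psme1 by 0.93 ± 0.07. In knockdown cells all 3 rose too, Psmb10 by 2.74 and Psme2 by 2.08, where 42.6% of all genes rose. Between the drug groups none passed, where 42.2% of all genes did. Of the 3 constitutive catalytic subunits that the immunoproteasome replaces, 2 were lower with Doxorubicin than in Control, where 39.8% of all genes were. Psmb7 fell by 0.50 and Psmb6 by 0.36 on the log2 scale, and Psmb5 did not pass. All 3 were also lower with the negative control siRNA than in Control, Psmb7 at -0.60 and Psmb5 at -0.59, where 33.7% of all genes were. With Hif-1α knockdown against the negative control siRNA, Psmb6 was higher (0.48) and Psme1 lower (-0.38). The Psmb6 direction turned with the comparator: against Control it was lower in Hif-1α knockdown (-0.34) and, further, with the negative control siRNA (-0.82).

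Of 7 peptide loading and folding partners in the endoplasmic reticulum, all 7 rose with Doxorubicin, where 43.9% of all genes did. The median log2 difference of the 7 was 1.00, beside 0.10 over all genes. Calr, the calreticulin of the loading complex, rose by 2.28 ± 0.07 (SE), the export factor Bcap31 by 1.79 ± 0.08, Pdia3 by 1.57 ± 0.07 and Uggt1, which tests glycoprotein folding, by 1.00 ± 0.08. In knockdown cells 6 of 7 rose, Bcap31 by 2.21 and Calr by 1.84, where 42.6% of all genes rose. Between the drug groups 6 of 7 were lower with the Hif-1α siRNA, where 20.8% of all genes passed as lower: Pdia3 fell by 1.58 ± 0.07, the translocon subunit Sec61a1 by 0.56, the chaperone Canx by 0.52 and Calr by 0.45 on the log2 scale. With knockdown against the negative control siRNA 4 were lower, Uggt1 by -0.72, and 2 higher, Calr by 0.47. Of all genes 31.2% were lower and 36.4% higher there. Uggt1 was higher with the negative control siRNA than in Control (0.53). Calr was lower with the negative control siRNA than in Control (-0.48), and Hif-1α knockdown against Control gave -0.01, which did not pass. The 7 cytosolic and endosomal peptidases had no common direction. With Doxorubicin 3 rose and 3 fell, beside 43.9% and 39.8% of all genes. Thop1 (1.13) was among the first and Tpp2 (-1.74) and Npepps (-1.47) among the second. Npepps was also lower with knockdown than with the negative control siRNA (-1.49).

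Of 15 tested transcription factors of class I genes, 6 rose, 6 fell and 3 did not pass with Doxorubicin, close to the 43.9% higher and 39.8% lower of all genes. Irf9, the DNA-binding part of the type I interferon response complex, rose by log2 3.03 ± 0.20 (SE), the CCAAT-binding subunit Nfya by 2.36 ± 0.07 and the RFX subunit Rfxank by 1.32 ± 0.10, while Rfxap, another RFX subunit, fell by 2.101 ± 0.14. Nlrc5 and Irf8 were not analysed here. With Hif-1α knockdown against the negative control siRNA 4 were higher and 7 lower, beside 36.4% and 31.2% of all genes. Irf1 (-0.75 ± 0.12) and Stat3 (-0.50 ± 0.07) were among the lower and Nfya (0.56 ± 0.07) among the higher. Irf1 then rose by 2.02 ± 0.12 with the drug in knockdown cells, beside Rfxank (2.099 ± 0.10) and Rela (1.39 ± 0.12). Between the drug groups 7 were higher with the siRNA and 2 lower, with Nfkb1 (1.02 ± 0.10) and Creb1 (0.52 ± 0.09) among the higher, beside 21.5% higher and 20.8% lower of all genes. Without drug, both were also higher with the negative control siRNA than in Control, Nfkb1 by 1.01 and Creb1 by 1.35. Hif-1α knockdown against Control gave 1.12 for Nfkb1 and 1.08 for Creb1.

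Of 9 tested interferon receptors, kinases and their inhibitors, 3 rose and 4 fell with Doxorubicin, near the shares of all genes (43.9% and 39.8%). Ptpn2, a phosphatase that restrains JAK and STAT proteins, fell by log2 2.21 ± 0.09 (SE), the receptor chain Ifnar2 fell by 0.91, and the inhibitor Socs3 rose by 1.49 ± 0.12. With knockdown against the negative control siRNA 2 were higher and 2 lower, Socs3 at 2.73 ± 0.13, Jak2 at 0.70 and Tyk2 at -0.94, beside 36.4% higher and 31.2% lower of all genes. Socs3 was lower with the negative control siRNA than in Control (-1.41), and Hif-1α knockdown against Control gave 1.33. Tyk2 was higher with the negative control siRNA than in Control (0.83), and Hif-1α knockdown against Control gave -0.10, which did not pass. Between the drug groups 6 were higher and none lower, where 21.5% and 20.8% of all genes were, including Socs3 (0.64) and the interferon-gamma receptor chain Ifngr1 (0.55). Ptpn2 also fell with the drug in knockdown cells, by 1.62.

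Of 23 other class I and class I-like genes 9 were tested in the main fit. Ulbp1 was listed in 3 groups and entered only edgeR fits of the compared groups. It was higher with Doxorubicin than in Control there (log2 2.60 ± 0.41 SE, adjusted p = 3.6e-05). The combined group against Doxorubicin gave 0.32 (adjusted p = 0.53). The counts below are of the 9. With Hif-1α knockdown 6 were lower and 2 higher than with the negative control siRNA, where 31.2% and 36.4% of all genes were: Mr1, which presents vitamin metabolites, at log2 -1.41 ± 0.09 (SE), the antibody and albumin receptor Fcgrt at -1.04 ± 0.11, the non-classical heavy chain H2-T22 at -0.90 ± 0.10, and the NKG2D ligand Raet1d at 1.69 ± 0.15. The Raet1d level was 11.6 ± 1.91 CPM (SD, n = 3) in Control, 3.65 ± 0.26 CPM with the negative control siRNA and 11.8 ± 1.13 CPM in Hif-1α knockdown, so the negative control group was the low one. Mr1 was higher with the negative control siRNA than in Control (1.05), and against Control it was lower in Hif-1α knockdown by -0.36. With Doxorubicin 3 were higher, Cd1d1 (1.57 ± 0.42) and Hfe (1.01 ± 0.10) among them, 1 was lower, H2-Q4 (-0.71 ± 0.12), and 5 did not pass, beside 43.9% higher and 39.8% lower of all genes. Between the drug groups 4 were lower with the siRNA, where 20.8% of all genes were, including H2-T10 (-0.996 ± 0.29) and H2-T22 (-0.42 ± 0.10). Cd1d1 rested on few reads, 9 to 14 a library in Control and 15 to 51 in Doxorubicin. H2-T10 had 32 to 37 reads in Doxorubicin and 16 to 25 in the combined group.

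Of 11 tested checkpoint ligands and PD-L1 partners, 6 were lower and 1 higher with Hif-1α knockdown than with the negative control siRNA, where 31.2% and 36.4% of all genes were. Pvr, a ligand of TIGIT and CD226, stood at log2 -2.74 ± 0.07 (SE), Cd47, which signals against phagocytosis, at -2.48 ± 0.09, and the adhesion ligand Nectin2 at -0.86 ± 0.09, while Cd276 (B7-H3) was higher by 1.58 ± 0.18. With Doxorubicin 7 rose and 4 fell, where 43.9% and 39.8% of all genes did: Cd276 rose by 2.49 ± 0.18, and Pvr fell by 2.82 ± 0.07, Cd47 by 2.17 ± 0.09 and the ubiquitin ligase Cop1 by 1.59 ± 0.08. In knockdown cells the drug gave 6 higher and 4 lower, beside 42.6% and 41.6% of all genes, with Cd276 at 1.91, Nectin2 at 1.36 and Cop1 at -1.67. Between the drug groups 1 was higher, Cd276 (0.66 ± 0.15), and 3 were lower, with Lgals9 at -0.76 ± 0.17, beside 21.5% and 20.8% of all genes.

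**Figure D5:**
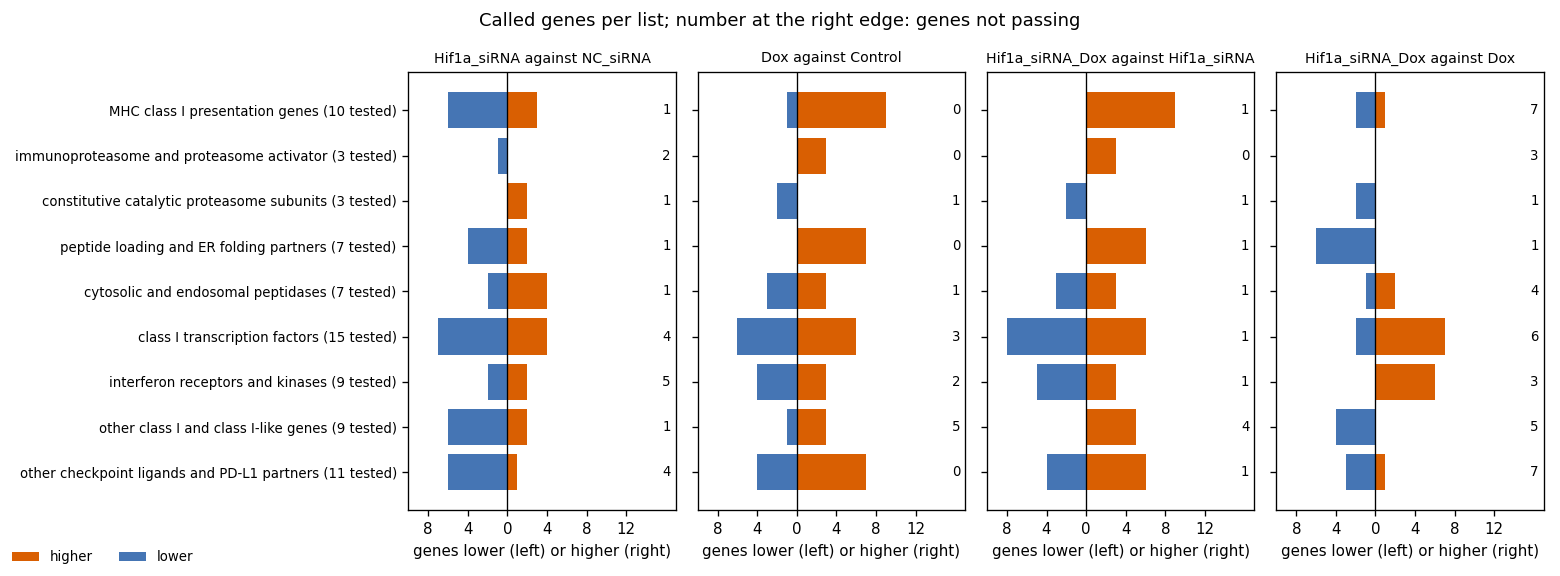
Number of tested genes of each list that were lower (blue, to the left) or higher (orange, to the right) at an adjusted p under 0.05 in 4 comparisons; the number at the right edge of each panel counts the genes that did not pass. The loading and folding partners have 7 higher and 0 lower with Dox against Control, and 6 lower and 0 higher for Hif1a_siRNA_Dox against Dox. Of all genes 43.9% were higher in the first comparison and 20.8% lower in the second.

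Among class II genes, which professional presenting cells use and which the interferon-gamma route also drives, H2-DMa, a peptide exchange chaperone, was higher with the drug: it was at 1.23 to 2.03 CPM in Control and 34.1 to 36.3 CPM in Doxorubicin (log2 4.49 ± 0.16 SE, adjusted p = 8.8e-18), and at 32.8 to 38.7 CPM in the combined group. It was named after its values were seen. The summed level of the 3 class II genes was 9.88 to 10.4 CPM in Control and 39.9 to 42.6 CPM in Doxorubicin, and H2-DMa alone carried this difference. The other two were lower with Doxorubicin: H2-DMb1, the partner chain of H2-DMa, went from 7.23 to 8.07 CPM in Control to 5.43 to 5.94 CPM (log2 -0.42 ± 0.15 SE, adjusted p = 0.012), and Cd74, the invariant chain, from 0.882 to 1.13 CPM to 0.355 to 0.546 CPM (log2 -1.20 ± 0.36 SE, adjusted p = 0.0041). The H2-DMb1 call did not hold under every alternative, where its adjusted p reached 0.076. Cd74 rested on 20 to 26 reads a library in Control and 8 to 13 in Doxorubicin. The class II chains H2-Aa, H2-Ab1 and H2-Eb1 and their activator Ciita were not analysed here.

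The genes with profiles over the 5 groups most like that of B2m, by the root mean square difference of centred mean log2 values among 10016 genes, were Rnf10 (0.05), Entpd2 (0.07), Smdt1 (0.07), Snf8 (0.07) and Tpgs2 (0.07). Rnf10 went from 300.4 ± 9.88 CPM in Control to 194 ± 2.86 in Hif-1α knockdown and 623 ± 17.1 in Doxorubicin (SD, n = 3). For Cd274 they were Ssh2 (0.05), Baz1a (0.07), Unk (0.09), Tacc2 (0.09) and Nkapd1 (0.09). Ssh2 went from 10.3 ± 0.50 CPM in Control to 19.8 ± 0.73 in Hif-1α knockdown and 12.7 ± 1.34 in Doxorubicin (SD, n = 3). None of these 10 is a member or a gene of the 8 lists, and the likeness is over 5 group means from the same libraries.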

How the data were processed

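RNA was extracted with RNeasy columns and libraries were made with the TruSeq Stranded mRNA kit, per the labels' protocols. The submitters' processing notes name the build mm10 and the tools HISAT2 2.1.0, StringTie 2.1.3b, Bowtie2 2.3.4.1, Trimmomatic 0.38 and FastQC 0.11.7; the gene annotation and the strand setting are not given in the sources used here. The deposited values are whole-number read counts per gene and library, as the authors made them. Blank symbols were filled from RefSeq by gene ID (1491 genes), and repeated IDs with identical counts were kept once. The groups list different genes, and 451 that some group lacks were left out of the main fit. Those listed in all groups of a comparison entered only the fit of the compared groups.

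Counts were tested with edgeR 4.0.16 in R 4.3.3 (TMM scaling, robust quasi-likelihood test, two-sided, group as the only term, all 15 libraries). P-values were adjusted over 12721 genes by the Benjamini-Hochberg method and passed under 0.05, in 8 comparisons. The low-count filter removed 0 genes, and the common biological coefficient of variation was 0.091. CPM were computed from TMM-scaled library sizes. The procedure was also run on simulated data in which few genes changed, at a single fixed dispersion. These comparisons differ from that setting, so the run does not show error rates here. Libraries of a group differed by more than sampling noise (chi-square per degree of freedom 3.56 to 34.5 over 15 pairs). Intervals cover 95% and SE are those of the fit. The alternatives were RLE and upper-quartile factors, DESeq2 1.42.0, limma-voom (limma 3.58.1), other filters, a threshold of 0.01, a replicate block, a fit without the groups not compared, merged heavy chain genes and leaving out each library. The text names all members, Hif1a and up to 4 genes of smallest adjusted p per list and comparison. The members and lists were chosen with earlier results of these data known.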

Additional observations from a re-analysis of the deposited data

Results flagged for a closer look

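The effect of doxorubicin differed between cells with and without the Hif-1α siRNA for 7 of the 10 members, by the test of the difference itself (edgeR quasi-likelihood test, where 58.6% of all genes passed). In log2 units, knockdown minus no siRNA, the differences were 2.78 for H2-K1, 0.60 for H2-D1, 4.05 for H2-T23, 0.32 for B2m, 0.48 for Tapbp, -0.65 for Erap1 and -0.54 for Cd274. The drug effect had opposite signs in the 2 settings for H2-T23, -1.83 in cells without siRNA and 2.22 in knockdown cells, both called, and for Cd274, 0.39 and -0.15, the latter not called. The lipoplex and the Hif-1α siRNA together separate the 2 settings and cannot be told apart.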

How the results depend on the processing

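Over the members and comparisons, 1284 values were recomputed under alternatives: 1220 kept their direction and their side of the threshold, 23 lost the call, 16 gained one and 25 changed sign. Apart from H2-T23 with heavy chain genes merged, each sign change belongs to a difference that did not pass in either fit. Merging the 7 heavy chain genes gives H2-K1, H2-D1 and H2-T23 1 shared value by construction: -1.57 for Hif-1α knockdown against the negative control siRNA, -1.60 against Control, -0.027 (adjusted p = 0.71) for the negative control siRNA against Control, 0.96 for Doxorubicin and 0.78 for the combined group against Control, 2.38 for the combined group against knockdown, -0.18 (adjusted p = 0.020) against Doxorubicin and 1.41 for the difference of drug effects. The sign thus turned for H2-T23 in all 3 comparisons of a group other than knockdown with Control and for H2-K1 with the negative control siRNA; the H2-D1 call there was lost, and H2-D1 and H2-T23 gained a call between the drug groups. Leaving out 1 library at a time moved the Tap2 difference from -0.11 to 0.29 for Hif-1α knockdown against Control, from -0.11 to 0.16 for the combined group against Doxorubicin, and from -0.27 to 0.14 for the difference of drug effects. It moved Tap1 from -0.55 to 0.047 for the negative control siRNA against Control and, for the combined group against Doxorubicin, Tap1 from -0.11 to 0.011, Tapbp from -0.11 to 0.11 and Tapbpl from -0.21 to 0.026. RLE factors and DESeq2 each gave 0.021 for Tap1 in the combined group against Doxorubicin and 0.026 for Tap2 in the difference of drug effects. Upper-quartile factors gave -0.0065 for Tap2 and -0.0087 for Tapbp in the combined group against Doxorubicin, and -0.0056 for H2-K1 with the negative control siRNA against Control.

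The number of members lower in the combined group than in Doxorubicin went from 2 to 1 with RLE factors, DESeq2, a threshold of 0.01 or only the compared groups, because H2-K1 no longer passed (log2 -0.18, adjusted p = 0.054 with RLE factors), and to 3 with upper-quartile factors, where B2m passed (-0.21, adjusted p = 0.042). Among the gene lists, interferon receptors and kinases lower with knockdown than with the negative control siRNA went from 2 to 4 with DESeq2 and 5 with only the compared groups. Between the drug groups, checkpoint genes went from 1 to 3 higher with RLE factors or DESeq2 and from 3 to 1 lower with these, a threshold of 0.01 or only the compared groups, which also took other class I genes from 4 to 2 lower. At 0.01, members higher with the negative control siRNA than in Control went from 3 to 1, and those with a negative difference of drug effects from 2 to 1. Leaving out each library in turn gave 1 to 2 members higher for Hif-1α knockdown against Control, 2 being without replicate 1 of the knockdown, where Tap1 passed (0.67, adjusted p = 0.043), and 0 to 1 lower for the combined group against knockdown. Cd274 passed for the negative control siRNA against Control with RLE factors (0.29, adjusted p = 0.041). Upper-quartile factors shifted the median of all genes by 0.13 for Doxorubicin against Control and by 0.15 for the combined group against knockdown. For Hif-1α knockdown against Control, Raet1d, which did not pass (0.03), gave -0.0066 with RLE factors or DESeq2, -0.040 with upper-quartile factors, -0.026 with only the compared groups and -0.057 to 0.17 without 1 library, and Calr -0.054 to 0.019 without 1 library.

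Same-numbered libraries of different groups had correlations of deviations from -0.16 to 0.09 over 30 pairs, none above 0.1. Libraries with other numbers had -0.17 to 0.14 over 60 pairs. The labels do not state a pairing, and with 3 libraries in a group these correlations cannot exclude one. With the replicate block the counts of members were as reported, for instance 1 higher and 2 lower for the combined group against Doxorubicin, with H2-K1 at -0.23 (adjusted p = 0.013). Low counts limit Tap1 and Tap2 without drug (10 to 76 reads a library) and H2-T23 in knockdown. Among the other genes named, they also limit, for instance, Cd1d1, H2-T10, Cd74, Psmb10, Irf9, H2-DMa, Cd276 and Pdgfra. Control libraries held 28 to 48 reads of Psmb10, 25 to 50 of Irf9 and 28 to 47 of H2-DMa. They held 48 to 65 reads of Cd276 and 20 to 26 of Pdgfra.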
